A study of Mus musculus with 16 samples.

Results

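The genes examined here encode the potassium channel subunits of pancreatic islets, without Kcnj11, the pore subunit of the ATP-sensitive potassium (KATP) channel. They were chosen by name alone: a gene symbol made of Kcn, further letters and a number, with Kcnj11 left out. This rule found 91 genes among the 54146 listed, and no measured value entered the choice. It keeps Kcnj8, which also encodes a KATP pore subunit, and the Kcnab genes for accessory subunits. Of the 91 genes, 72 passed the filter on low values and were tested, which 15204 genes of all kinds did. The 19 others are given by their levels.

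RNA-seq was carried out on whole islets of mice of 26 weeks, all on a high-fat diet, from the 8 strains that founded the diversity outbred (DO) stock. The classical strains were 129S1_SvImJ (129, 10 libraries), A_J (AJ, 14), C57BL/6J (B6, 18), NOD_ShiLtJ (NOD, 10) and NZO_HlLtJ (NZO, 4). The wild-derived strains were CAST_EiJ (CAST, 14), PWK_PhJ (PWK, 5) and WSB_EiJ (WSB, 16). No transgene or gene deletion is given for any strain. Of the 91 libraries, 45 are labelled female and 46 male, and NZO has a single male and PWK a single female library. Nothing states that each library is a separate mouse, so the tests measure the spread between libraries, which may in part be technical. NOD develops autoimmune infiltration of its islets and NZO becomes obese, which limits both as models of healthy islets.

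The libraries held between 16928552 and 35196145 expected counts. A set of 12 libraries (6 of 129, 2 of NOD and 4 of WSB) went against the sex of its label by the counts of Xist and Y-linked genes. Beta cell markers were present in every strain, with 7 markers summing to between 165780 and 570150 TPM (a transcript level scaled for transcript length and library depth). Acinar markers, which mark the exocrine pancreas around the islets, summed to between 1622 and 283050 TPM. In whole islets, fewer cells of a type and less RNA per cell cannot be told apart. Libraries of AJ, B6, CAST and WSB carry the numbers 1 to 65 and those of 129, NOD, NZO and PWK the numbers 66 to 100, so the number range and the strain cannot be told apart across these sets.

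Potassium channels let potassium leave the cell and so hold or restore a negative membrane potential. In beta cells, closure of KATP channels by glucose metabolism depolarizes the membrane and opens calcium channels, and other potassium channels then shape and end the electrical activity that drives insulin release. Voltage-gated channels repolarize action potentials, calcium-activated channels respond to the calcium that enters, inward rectifiers and tandem-pore-domain channels (K2P, with a pair of pore domains in each subunit) set the resting potential. Accessory subunits change the gating or the surface level of the pores, and electrically silent subunits work only in assembly with other subunits.

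RefSeq promoter windows of 300 bases (GRCm38.p6) were matched for 67 of the 91 genes, some with several starts, 92 windows in all. The windows of 3 genes are shown 5′ to 3′ on the gene's strand, because Kcnk16 was the most abundant gene of the family and because Kcnip1 and Kcnj5 had libraries of a single strain apart from all others. Capitals mark CG dinucleotides.
Kcnk16 (chr14:20269220-20269519, minus strand): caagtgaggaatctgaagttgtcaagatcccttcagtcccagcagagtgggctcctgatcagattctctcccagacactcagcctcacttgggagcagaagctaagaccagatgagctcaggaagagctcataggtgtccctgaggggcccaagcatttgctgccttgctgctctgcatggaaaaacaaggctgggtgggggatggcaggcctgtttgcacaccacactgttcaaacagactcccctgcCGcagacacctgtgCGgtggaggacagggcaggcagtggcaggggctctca
Kcnip1, the start nearest the 5′ end of 3 (chr11:33993144-33993443, minus strand): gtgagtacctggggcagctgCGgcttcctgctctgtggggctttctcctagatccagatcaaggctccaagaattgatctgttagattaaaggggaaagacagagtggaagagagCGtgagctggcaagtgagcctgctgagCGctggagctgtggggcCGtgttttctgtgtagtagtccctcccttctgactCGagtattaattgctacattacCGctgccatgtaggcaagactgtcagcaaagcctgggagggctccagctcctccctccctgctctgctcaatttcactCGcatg
Kcnj5 (chr9:32344295-32344594, minus strand): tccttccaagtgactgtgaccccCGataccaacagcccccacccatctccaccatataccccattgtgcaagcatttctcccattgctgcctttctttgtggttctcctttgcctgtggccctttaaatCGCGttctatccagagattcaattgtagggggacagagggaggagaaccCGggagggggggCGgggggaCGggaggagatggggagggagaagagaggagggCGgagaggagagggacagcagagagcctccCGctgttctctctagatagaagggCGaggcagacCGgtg
The window of Kcnk16 held 2 CG dinucleotides, and only 14.1% of the 32851 windows of all genes held fewer. The Kcnip1 window held 7 and the Kcnj5 window 10, beside a median of 7 over all genes and 9 over the potassium channel genes. On both strands, TATAAA stood in 5 of the 92 windows (13.6% of all windows hold it), TAATTA in 0 (5.29%), CAGATG in 19 (17.2%) and GGGCGG, which holds a CG itself, in 44 (35.7%). These are matches of letters only. No strain's own sequence was read, so the windows say nothing about differences between the strains.

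Islet levels were spread over a wide range. Averaged over the 91 libraries, 40 genes reached 1 TPM or more, 16 genes 5 TPM and 9 genes 10 TPM, whereas 20 genes stayed under 0.1 TPM and 2 (Kcna10 and Kcns2) were never counted. The 40 genes make up 44% of the 91, beside 58.2% of all protein-coding genes at this level. By family, at least 1 TPM was reached by 15 of 30 voltage-gated pore genes, 8 of 15 accessory, 6 of 8 calcium- or sodium-activated and related, 5 of 14 tandem-pore-domain, 4 of 14 inward rectifier and 2 of 10 electrically silent genes.

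Kcnk16 (ENSMUSG00000023387, chromosome 14, 20261376 to 20269199), a K2P leak channel known for its high level in the pancreas, stood above all others at 205 TPM. It was higher than 98.9% of protein-coding genes and made up 37.8% ± 6.40 (SD, n = 91) of the summed TPM of the 91 genes. Next came Kcnmb2, an accessory subunit of the large-conductance calcium-activated (BK) channel, at 44.6 TPM, and Kcnh2, an ERG-type voltage-gated pore, at 40 TPM. Kcnip1, a calcium-binding partner of A-type channels, had 34.1 TPM and the second ERG-type pore Kcnh6 26.4 TPM. Kcnk1, a weak inward-rectifying K2P channel, had 19.4 TPM, and Kcnn3, a small-conductance calcium-activated (SK) channel, 17.7 TPM. Kcnma1, the BK pore, had 8.93 TPM.

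**Figure D1:**
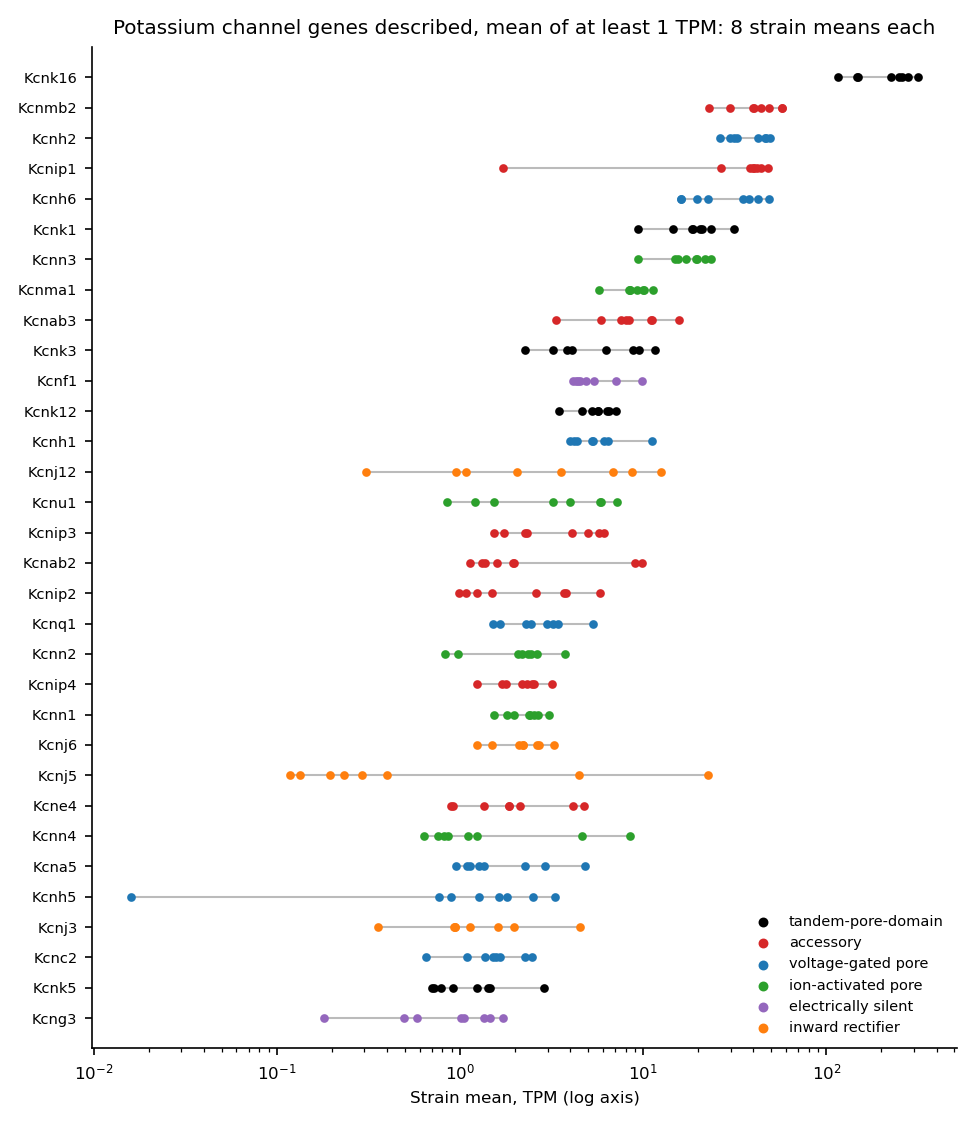
Strain means of the potassium channel genes that are described here and have a mean of at least 1 TPM, in order of their mean, on a log axis of TPM, with 1 point for each of the 8 strains and colour by family. Kcnk16 lies to the right of every other gene, and the long lines of Kcnip1, Kcnj5, Kcnj12 and Kcnh5 come from strains at the low or the high end.

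Nearly all of the genes differed between strains, as did nearly all genes of any kind. In edgeR's quasi-likelihood F test of strain, 70 of the 72 tested genes passed an adjusted p-value of 0.05, beside 97.4% of all 15204 genes, so passing sets the family apart in nothing. The 2 that did not were Kcne3 and Kcnj9. With a difference of at least 1 on the log2 scale between the highest and the lowest strain, 63 of 72 passed (87.5%), beside 44.4% of all genes. The median difference between the highest and lowest strain was 2.13 on the log2 scale (4.37-fold) for the 72 genes and 0.87 (1.83-fold) for all genes. The 72 genes also had lower counts, with a median of 111 normalized counts beside 440 for all genes, and the part of the level in the larger differences was not tested. By family the median ran from 1.69 on the log2 scale for calcium- or sodium-activated pores to 2.54 for K2P channels and 3.19 for the 3 silent subunits tested. Among the 16 genes with at least 5 TPM the fold between the extreme strains ran from 1.73 to 47.6, with a median of 2.35.

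**Figure D2:**
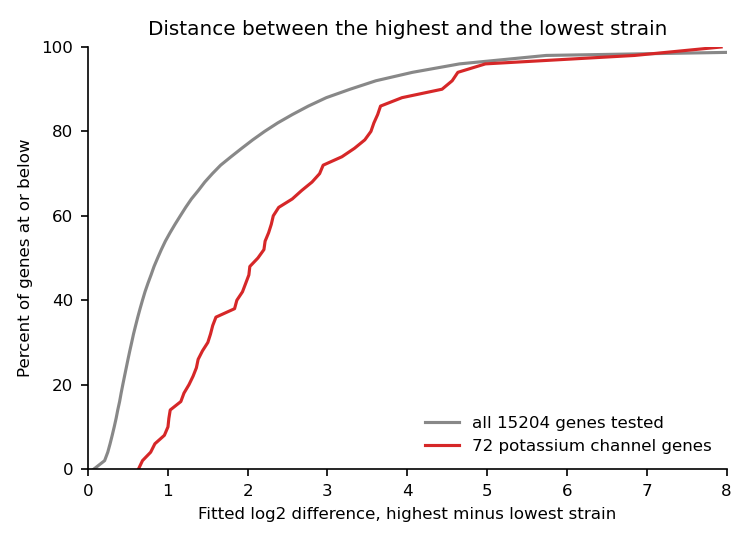
Percent of genes (vertical axis) whose fitted log2 difference between the highest and the lowest strain lies at or below the value on the horizontal axis, for the 72 potassium channel genes and for all genes tested. The line of the potassium channel genes lies to the right, with medians of 2.13 and 0.87.

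Each strain was then set against the 7 others one at a time. A gene that exceeded all 7 at an adjusted p-value under 0.05 was called selective for that strain, and a gene below all 7 was called lowest in it. By these rules 23 of the 72 genes were selective for a strain (25.8% of all genes were) and 22 were lowest in a strain (21.7%). The selective genes fell to NZO (6), NOD (4), WSB (4), 129 (3), CAST (2), PWK (2), AJ (1) and B6 (1). Over all genes the 3916 selective ones fell to NOD (1716), PWK (615), CAST (378), NZO (344), WSB (286), 129 (222), AJ (215) and B6 (140). The lowest genes fell to NZO (7), NOD (6), CAST (5), PWK (2), 129 (1) and AJ (1). Over all genes the 3305 lowest ones fell to NOD (766), PWK (701), CAST (533), AJ (348), WSB (336), NZO (271), B6 (209) and 129 (141). With counts summed to the 16 samples, 16 of the 23 genes kept their selective call and 19 of the 22 their lowest call. Markers of other islet cells also differed in NZO: 5 alpha cell markers summed to 3401 to 14262 TPM (median 6773, medians of 12004 to 30591 elsewhere) and 3 delta cell markers to 1035 to 1912 TPM (median 1371, elsewhere 2238.5 to 15412). Sums of 5 ductal markers (150.85 to 828.85 TPM) and of 5 stellate cell and pericyte markers (122 to 219 TPM) had their highest medians there. None of these markers was at 0 in the NZO mean, and their part in the NZO calls was not tested. A stricter description asks that every library of a strain lie apart from every other library in normalized counts: 5 of the 72 genes lay wholly above (2.64% of all genes) and 2 wholly below (2.1%).

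**Figure D3:**
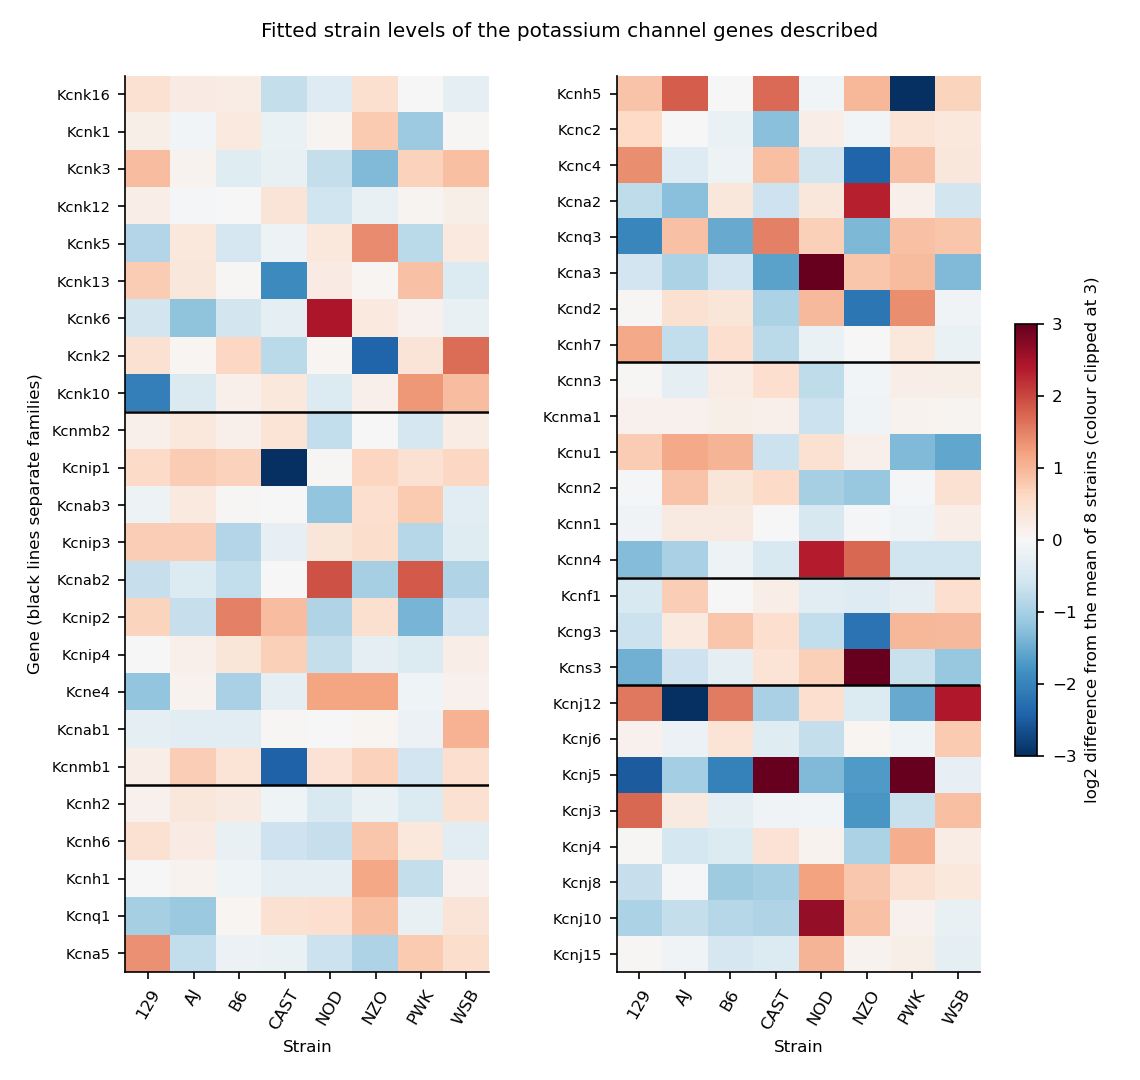
Fitted strain levels of the tested genes described here (rows, by family) in the 8 strains (columns), as the log2 difference from the mean of the 8 strains. The deepest colours are those of Kcnj5 in CAST and PWK, Kcnip1 in CAST, Kcnh5 in PWK, Kcnj12 in AJ, Kcns3 in NZO and Kcna3 in NOD.

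Among the K2P channels, Kcnk16 was lowest in CAST. Its libraries ran from 54.4 to 193 TPM in CAST (median 119, n = 14), from 112 to 180 in WSB (median 152, n = 16) and from 89.6 to 207 in NOD (median 145, n = 10). The 129 libraries ran from 278 to 357 TPM (median 326, n = 10), those of AJ from 219 to 295 (median 260) and those of B6 from 89.2 to 296 (median 243). NZO had 221, 250.04, 305 and 344 TPM, and PWK 157, 228, 276, 280 and 310.1 TPM. The 129 libraries all lay above those of CAST, NOD and WSB, whereas B6 overlapped every other strain in part. On normalized counts NZO was highest, 2.30-fold above CAST (log2 difference 1.2 ± 0.13 SE, adjusted p = 3.56e-13 by edgeR), NZO and 129 did not differ beyond their spread (adjusted p = 0.899), and CAST was 1.25-fold below NOD, its nearest neighbour (adjusted p = 0.00315). Acinar sums reached 283050 TPM in B6, 269950 in NOD, 265900 in PWK and 224350 in CAST. With the acinar sum as a covariate, chosen after seeing the data, NZO was 2.24-fold above CAST and CAST was still the lowest strain. With counts summed to the 16 samples, CAST was no longer called lowest.

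Kcnk3, an acid-sensitive K2P channel, was lowest in NZO, with 1.51, 2.14, 2.37 and 3.04 TPM. It was high in 129 (6.93 to 17, median 11.1), WSB (6.06 to 14.3, median 9.06) and PWK (4.55, 7.87, 9.06, 10.8 and 11.95). The fold of 129 over NZO was 4.72 (log2 difference 2.24 ± 0.23 SE), and 129, WSB and PWK did not differ pairwise beyond their spread. The 6 neighbours of Kcnk3 tested within 200 kb differed between 129 and NZO by -1.14 to 4.09 on the log2 scale (median 1.40). The delta cell marker sum had its highest medians in the same 3 strains, 15412 TPM in PWK (6529 to 18562), 8361 in 129 (5740.5 to 12473) and 7160 in WSB (4563 to 11164), and the alpha cell marker sum in 129 (30591, from 14354 to 53563) and PWK (29831, from 12191 to 42821). NOD came next for the delta cell sum (median 6620, from 3120 to 10248), while its fitted Kcnk3 level was the lowest after NZO. The part of these sums in the calls of genes high in 129, PWK or WSB was not tested. Kcnk1 was highest in NZO (27.6, 28.5, 32.45 and 37.1 TPM) and lowest in PWK (7.27, 8.37, 9.58, 10.03 and 11.3 TPM), 3.62-fold apart, although 3 B6 libraries (up to 33.3 TPM), 2 AJ libraries (up to 29.96 TPM) and 1 WSB library (32.1 TPM) lay within the NZO range. Kcnk5, another acid-sensitive channel, lies 79567 bases from Kcnk16 and was selective for NZO at 2.05, 2.79, 3.23 and 3.38 TPM, with 0.706 TPM ± 0.246 (SD, n = 10) in 129. Kcnk13, a halothane-inhibited channel, was lowest in CAST at 0.209 TPM ± 0.144 (SD, n = 14) and highest in PWK at 1.85 TPM ± 0.695 (SD, n = 5). The mechanosensitive Kcnk2 was selective for WSB (0.667 TPM ± 0.158, SD, n = 16) and lowest in NZO (0.0375 TPM), and its relative Kcnk10 was lowest in 129 (0.055 TPM) with a median of only 12 counts per library. Kcnk12 had 3.48 TPM in NOD and 6.48 TPM in CAST.

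The voltage-gated pores differed between strains to unequal degrees. Kcnh2 ranged over strain means of 26.2 TPM (NOD) to 49.2 TPM (AJ), and the fitted fold of WSB over NOD was 1.87.

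Kcnh6 in NZO measured 44.8, 49.1, 49.3 and 51.2 TPM, and in CAST and NOD it averaged 16 TPM ± 5 (SD, n = 14) and 16.1 TPM ± 3.85 (SD, n = 10). In normalized counts every NZO library lay above all other libraries, although in TPM the highest 129 and PWK libraries (47 and 46.5) passed the lowest NZO one. NZO exceeded 129 by 1.31-fold with an adjusted p of 0.038, and this call was lost without any single NZO library. The Eag-type pore Kcnh1 was also selective for NZO, at 9.89, 11.4, 11.5 and 11.9 TPM, above the 129 libraries (3.70 to 7.82) by 2.20-fold, while the highest B6 and CAST libraries reached 11.5 and 10 TPM. Kcna2, a Shaker-type pore, had 2.16, 2.55, 3.29 and 4.25 TPM in NZO and no more than 1.94 TPM in any other library, and NZO exceeded NOD by 3.95-fold (log2 difference 1.98 ± 0.29 SE).

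Kcnq3, a slow voltage-gated pore, was highest in CAST, at 1.00 TPM ± 0.488, and lowest in 129, at 0.113 TPM ± 0.0395 (SD, n = 10). Kcnq1, known as a diabetes risk gene in human studies, averaged 5.30 TPM ± 1.23 in NZO (n = 4) and 1.52 TPM ± 0.462 in AJ (n = 14), a fitted fold of 4.06. AJ has the lowest acinar sums (median 5594 TPM), and with the acinar covariate the fold fell to 1.44 and did not pass (adjusted p = 0.101).

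Kcnh5, the other Eag-type pore, was all but missing in PWK, with 0, 0, 0, 0.01 and 0.07 TPM, 6 counts over all 5 libraries. Elsewhere it ran from 0.08 TPM (B6) to 4.95 TPM (CAST), so no library of another strain overlapped PWK. AJ was highest at 3.30 TPM ± 0.614 (SD, n = 14). The fitted fold of AJ over PWK was 218 (log2 difference 7.77 ± 0.56 SE), and that of NOD, the strain nearest to PWK, 59.2; with so few counts in PWK both depend on the fit. Of the scarcer pores, Kcnc4 (fast voltage-gated) was lowest in NZO at 0.150 TPM beside 2.03 TPM in 129, Kcnc2 was lowest in CAST at 0.651 TPM beside 2.48 TPM in 129, Kcnd2 (an A-type pore) was lowest in NZO at 0.05 TPM, and Kcna5 and Kcnh7 were selective for 129 at 4.83 and 0.393 TPM. The Kcna5 call was lost under 11 of 20 alternatives. The neighbour tested near Kcnc2 differed between 129 and CAST by 5.94 on the log2 scale, and the 3 near Kcnh7 by -0.49 to 2.13 between the same strains.

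**Figure D4:**
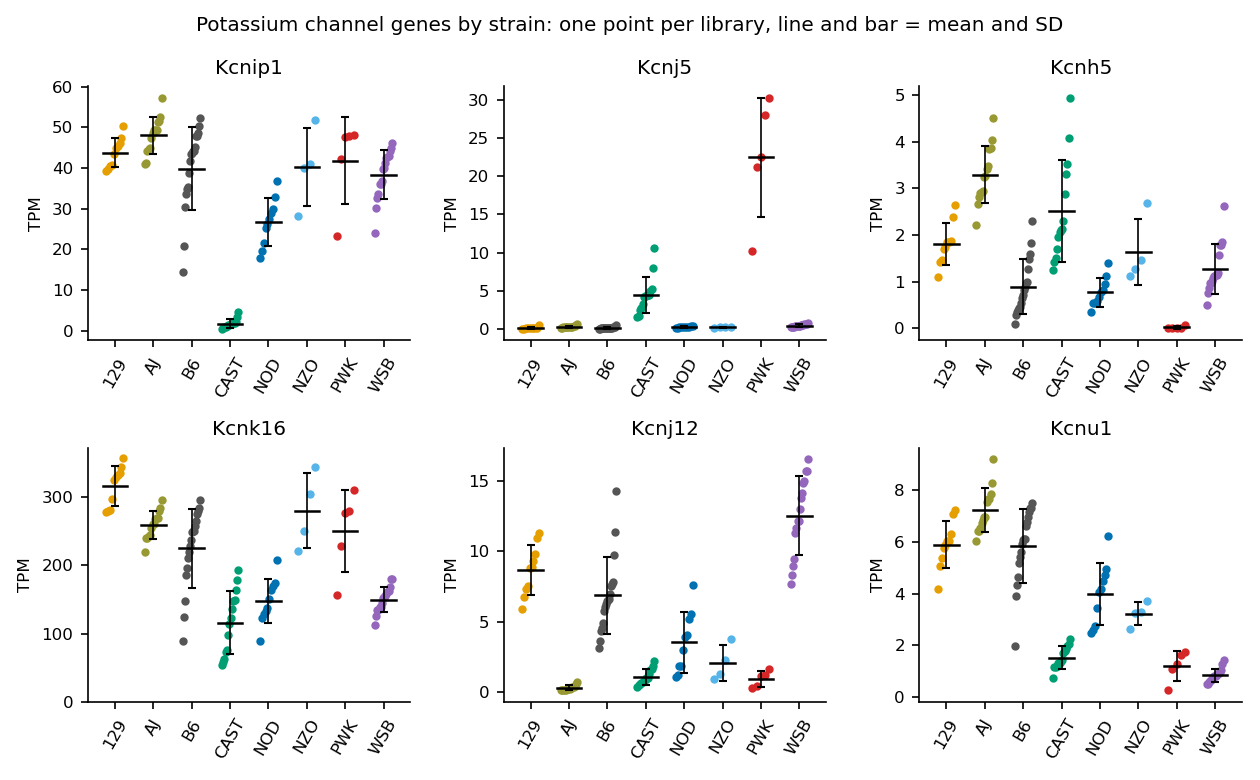
TPM of 6 potassium channel genes in every library, by strain, with the mean (line) and SD (bar). The CAST libraries of Kcnip1 and the PWK libraries of Kcnh5 lie below all others, the PWK libraries of Kcnj5 lie above all but the highest CAST library, Kcnj12 runs from AJ at the bottom to WSB at the top, Kcnu1 is low in CAST, PWK and WSB, and Kcnk16 is high in every strain.

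Among the accessory subunits, Kcnip1 (chromosome 11, 33629339 to 33993152) was lost almost wholly in CAST. Its CAST libraries ran from 0.44 to 4.68 TPM (median 1.5, n = 14), and the lowest library elsewhere, of B6, had 14.3 TPM. The other strains had medians of 44.2 (129), 48.9 (AJ), 43.6 (B6), 26.9 (NOD), 40.4 (NZO), 47.6 (PWK) and 39.8 (WSB) TPM. AJ exceeded CAST by 23.8-fold (log2 difference 4.57 ± 0.14 SE), and NOD, the next lowest strain, exceeded CAST by 14.5-fold (adjusted p = 7.98e-40, edgeR). Kcnmb1, an accessory BK subunit, lies inside the span of Kcnip1 on the opposite strand and was lowest in CAST too, at 0.0779 TPM ± 0.0466 (SD, n = 14) beside 0.842 TPM ± 0.166 in AJ. Whether the counting used the strand is not stated, so reads from the overlapping stretches cannot be told apart. The 2 other neighbours tested within 200 kb of Kcnip1 differed between AJ and CAST by log2 differences of only -0.69 and 0.02.

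Kcnab2, a subunit of Shaker-type channels, was high in NOD (1.5 to 31.1 TPM, median 7.04) and in PWK (4.26, 7.98, 9.29, 11.1 and 12.5 TPM). In the other strains its means were 1.13 to 1.96 TPM, and NOD and PWK did not differ beyond their spread (adjusted p = 0.823). With an immune marker covariate, described below, Kcnab2 was called selective for PWK. Kcnab3 was lowest in NOD (3.35 TPM ± 0.553, SD, n = 10) and highest in PWK (15.7 TPM ± 3.20, SD, n = 5). Kcnip2 was selective for B6 at 5.80 TPM ± 2.15 (SD, n = 18), Kcnip4 for CAST at 3.18 TPM ± 1.60 (SD, n = 14), and Kcnab1 for WSB at 1.38 TPM ± 0.394 (SD, n = 16). The calls of Kcnip2 and Kcnip4 were lost with counts summed per sample, and that of Kcnip4 with limma-voom too. Kcnip3, a calcium-binding protein also known as a transcriptional repressor, was high in 129 (6.13 TPM) and AJ (5.70 TPM) and low in B6 (1.53 TPM) and PWK (1.74 TPM). Kcne4, a small membrane-spanning subunit, had its highest strain means in NOD (4.75 TPM) and NZO (4.14 TPM), and Kcnmb2 ran from 22.8 TPM in NOD to 57.6 TPM in AJ. Kcnmb3, which the filter removed, was counted in CAST (0 to 2.26 TPM, 368 counts over 14 libraries) and had at most 8 counts over all libraries of any other strain.

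Among the inward rectifiers, Kcnj5 (chromosome 9, 32314707 to 32344350), a subunit of G-protein-gated channels, was the most strain-dependent of the 72 genes. PWK had 10.25, 21.2, 22.5, 28.05 and 30.3 TPM, CAST had 1.52 to 10.6 TPM (median 4.30), and no other library exceeded 0.70 TPM. In TPM the highest CAST library passed the lowest PWK one, in normalized counts none did, and every library of either strain lay above every library of the other 6 strains. PWK exceeded 129 by 244-fold (log2 difference 7.93 ± 0.38 SE, 9050 counts over 5 libraries beside 99 over 10) and CAST by 4.16-fold (adjusted p = 1.34e-09). CAST in turn exceeded WSB, the third wild-derived strain, by 12.5-fold. The 2 protein-coding neighbours tested within 200 kb differed between PWK and 129 by log2 differences of -0.06 and 0.17. Its assembly partners took other patterns: Kcnj3 was selective for 129 (4.50 TPM ± 1.03, SD, n = 10) and lowest in NZO (0.355 TPM), and Kcnj6 was selective for WSB (3.27 TPM ± 0.579, SD, n = 16) and lowest in NOD (1.23 TPM). Both selective calls were lost with counts summed per sample. The Kcnj6 lowest call was lost without the libraries against their sex label.

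Kcnj12, a strong inward rectifier, ran over the widest range among genes of at least 5 TPM. AJ libraries had 0.14 to 0.70 TPM (median 0.26, n = 14), below all WSB libraries at 7.69 to 16.5 TPM (median 12.6, n = 16). 129 and B6 stood near WSB, at 8.66 TPM ± 1.77 (SD, n = 10) and 6.86 TPM ± 2.74 (SD, n = 18), and PWK had 0.31, 0.43, 1.14, 1.19 and 1.66 TPM. AJ was called lowest, below PWK and every other strain by at least 1.65 on the log2 scale. WSB exceeded AJ by 47.6-fold (log2 difference 5.57 ± 0.27 SE) and 129 by 1.78-fold (adjusted p = 0.00139). The 7 neighbours tested within 200 kb lay between -0.28 and 0.75 on the log2 scale for WSB over AJ. Kcnj4, a relative of Kcnj12, was selective for PWK at 1.88 TPM ± 0.737 (SD, n = 5).

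Among the calcium- and sodium-activated pores, the SK genes Kcnn1 and Kcnn3 and the BK pore Kcnma1 were lowest in NOD, at 1.52, 9.34 and 5.72 TPM, and spanned only 1.67-, 2.39- and 1.76-fold. Beta cell marker sums had their lowest median in NOD (323680 TPM, elsewhere 327630 to 524090) and acinar sums their highest (97519 TPM). The part of these sums in the genes low in NOD was not tested. Kcnn2 was selective for AJ at 3.73 TPM ± 0.513 (SD, n = 14), 4.01-fold above NZO. Acinar sums had their lowest median in AJ (5594 TPM, elsewhere 19120 to 97519), and with the acinar covariate Kcnn2 was 3.80-fold above NZO but no longer selective for AJ. Kcnu1, a relative of the BK pore known from sperm, separated the classical from the wild-derived strains. Its means were 7.21 (AJ), 5.89 (129), 5.82 (B6), 3.98 (NOD) and 3.23 TPM (NZO) against 1.53 (CAST), 1.21 (PWK) and 0.848 TPM (WSB), and only the lowest B6 library, at 1.96 TPM, fell within the range of CAST, which ended at 2.26 TPM. Of the silent subunits, Kcnf1 spanned 2.30-fold, Kcng3 was lowest in NZO at 0.180 TPM ± 0.120 (n = 4), and Kcns3 was selective for NZO at 1.19, 1.47, 1.95 and 2.59 TPM (401 counts in all), above every other library.

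Of the 63 genes with a called difference of at least 1 on the log2 scale, 13 were highest in NOD (20.6%, beside 33.9% of all such genes). Kcna3, the voltage-gated pore of T cells, had 0.17 to 9.87 TPM in NOD (median 1.90, n = 10) and at most 1.30 TPM in any other library, with a median of only 6 counts over all libraries. Kcnn4, the intermediate-conductance channel of lymphocytes and epithelia, had 0.93 to 29.1 TPM in NOD (median 6.00) and 2.05 to 9.29 TPM in NZO (median 3.54), and NOD and NZO did not differ beyond their spread (adjusted p = 0.23). Kcnk6, a K2P channel, had 0.67 to 12.4 TPM in NOD (median 2.65), Kcnj10, an inward rectifier of glia and other cells, 0.19 to 6.60 TPM (median 1.55), and Kcnj15 0.12 to 1.36 TPM (median 0.445). The spread within NOD was large for all of these, and the lowest NOD library lay within the range of other strains each time. Kcnj8 had means of 1.90 TPM in NOD and 1.45 TPM in NZO.

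The summed immune cell markers also had their highest median in NOD. The sum of 16 markers of T cells, B cells and macrophages ran from 35.25 to 3271 TPM over the NOD libraries (median 528) and reached at most 164 TPM (129) elsewhere, and none of the 16 was at 0 in any strain mean. T cell markers alone ran from 2.85 to 537 TPM in NOD and to at most 25.9 TPM elsewhere. With the log2 immune sum as a covariate, chosen after seeing the data, Kcna3, Kcnk6, Kcnj10 and Kcnj15 were no longer selective for NOD. The fold of NOD over the lowest strain went from 29.1 to 2.24 for Kcna3 (adjusted p = 0.0769), from 12.1 to 2.25 for Kcnj10, from 12.6 to 2.26 for Kcnn4, from 12.5 to 5.02 for Kcnk6, from 7.55 to 2.92 for Kcnab2 and from 2.88 to 1.54 for Kcnj15 (adjusted p = 0.187). For Kcnj8 it went from 4.82 to 3.50 and still passed (adjusted p = 1.45e-07). Under the same covariate Kcnn4 was called selective for NZO and Kcnab2 for PWK, so both calls placed another strain above NOD. Of the 6 genes lowest in NOD, Kcnma1 alone was still called lowest there. For Kcnma1 the fold of B6 over NOD went from 1.76 to 1.53. The strain-bound patterns of Kcnip1, Kcnj5, Kcnh5 and Kcnj12 kept their strain calls with this covariate. Since the sum differs between NOD and the other strains, the covariate and the strain overlap in this fit.

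**Figure D5:**
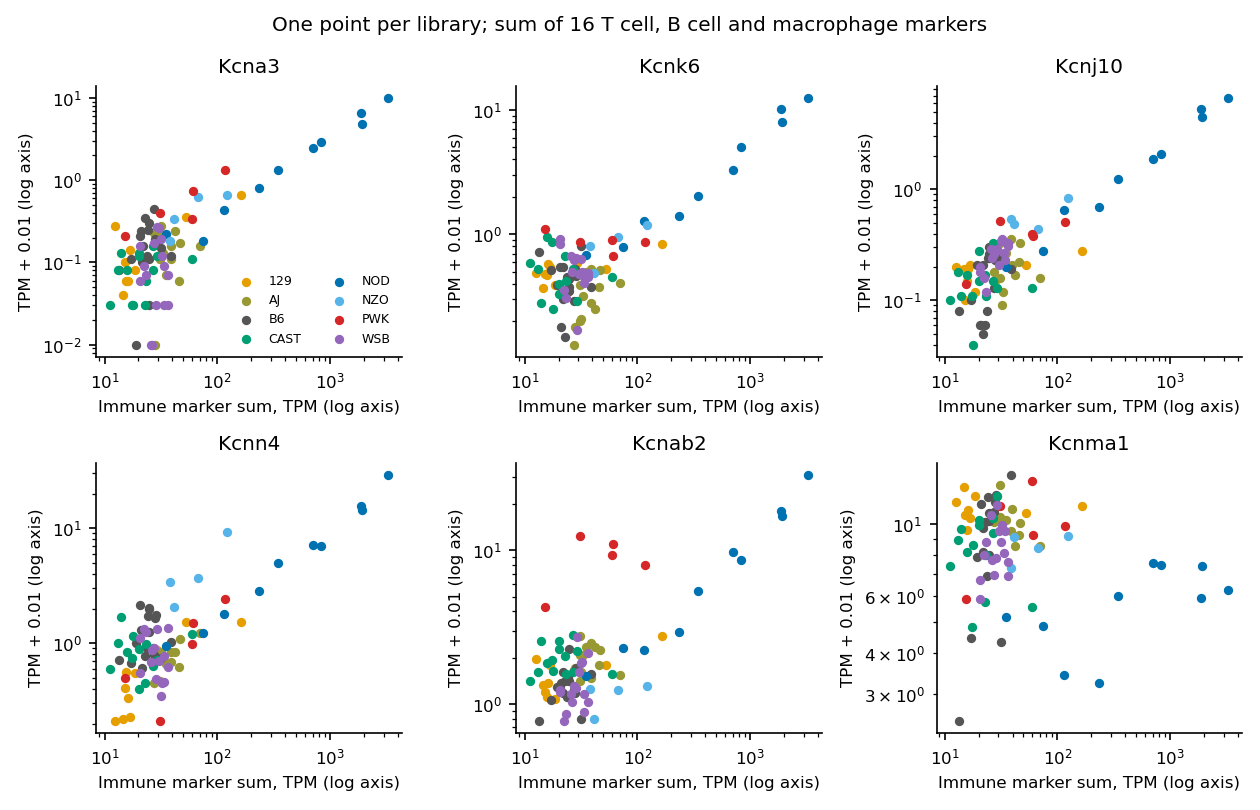
TPM (plus 0.01) of 6 potassium channel genes against the summed TPM of 16 immune cell markers, 1 point per library, both on log axes, coloured by strain. The NOD libraries (blue) spread to the right up to 3271 TPM with higher Kcna3, Kcnk6, Kcnj10, Kcnn4 and Kcnab2, PWK libraries stand apart for Kcnab2 at low marker sums, and Kcnma1 shows no such rise.

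Wild-derived and classical strains were compared as the mean of CAST, PWK and WSB against the mean of the 5 classical strains. Higher in the wild-derived strains were 23 of the 72 genes (24.9% of all genes) and lower 22 (31.3%), and 12 of the 45 differed by at least 1 on the log2 scale. Among the higher genes with the smallest p were Kcnj5 (23.8-fold), Kcnq3 (3.31-fold), Kcng3 (2.47-fold) and Kcnj4 (1.91-fold). In fitted log2 levels relative to the mean of all strains, AJ (0.87) lay above WSB (0.82) for Kcnq3. For Kcng3, B6 (0.83) lay above CAST (0.50), and NZO was lowest (-2.21). Kcnj5 was at 5.44 in PWK and 3.39 in CAST but -0.26 in WSB, with AJ the highest classical strain at -1.03. For Kcnj4 all 3 wild-derived levels lay above all 5 classical ones, the nearest being WSB (0.23) and NOD (0.10). The 5 genes lower in the wild-derived strains with the smallest p were Kcnu1 (log2 difference -1.89 ± 0.09 SE), Kcnip1 (-1.45 ± 0.09), Kcnh5 (-1.92 ± 0.21), Kcnmb1 (-1.33 ± 0.15) and Kcnk16 (-0.53 ± 0.06). Of these genes, Kcnu1 had all 3 wild-derived means below all 5 classical means, whereas WSB lay within the range of the classical strains for Kcnip1, Kcnmb1 and Kcnh5, as did PWK for Kcnip1, CAST for Kcnh5, and both PWK and WSB for Kcnk16. Within the sets of strains that share a range of library numbers, 60 of 72 genes differed between AJ, B6, CAST and WSB (82.8% of all genes) and 65 between 129, NOD, NZO and PWK (82.6%).

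Differences between the sexes were small. With the labels as given, 6 of the 72 genes were higher in males (8.33%, beside 2.06% of all genes) and 7 in females (9.72%, beside 1.95%). Their median fold was 1.27 and the largest 1.49. With counts summed to the 16 samples no gene was called in either sex (0 and 0 by edgeR, 7 and 9 at an unadjusted p under 0.05, 6 and 8 by DESeq2 on the libraries). Without the 12 libraries that go against their label, 8 were higher in males (11.1%, beside 4.92% of all genes) and 12 in females (16.7%, beside 4.87%). Kcnn3 ran from 5.93 to 32.55 TPM in males (median 19.7, n = 46) and from 4.91 to 29.2 TPM in females (median 15.4, n = 45), was higher in males in 6 of 8 strains by mean TPM and differed by 1.27-fold (1.34-fold without the 12 libraries). Kcnh1 (1.42-fold and 1.66-fold), Kcnip2 (1.47-fold and 1.64-fold) and Kcnk16 (1.13-fold and 1.17-fold) were also higher in males, as were Kcnh5 and Kcnk10. Kcnk3 ran from 1.99 to 15.95 TPM in females (median 6.24) and from 1.51 to 17 TPM in males (median 4.81) and was higher in females in 7 of 8 strains. Kcnc4, Kcna5, Kcnip3, Kcnj4 and Kcnj5 were higher in females as well, with log2 differences of males to females of -0.57 ± 0.13 SE, -0.33 ± 0.09, -0.32 ± 0.08, -0.28 ± 0.08 and -0.58 ± 0.15. For Kcnj5 the mean TPM over all libraries was higher in males; 4 of the 5 PWK libraries are male. The libraries of both sexes overlapped for every one of these genes.

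Partner proteins of potassium channels were listed beside them. Of 24 partner genes, 23 were tested and all 23 differed between strains, 11 by at least 1 on the log2 scale, with a median difference of 0.91. These are near the values over all genes given above (97.4% differing, 44.4% with at least 1 on the log2 scale, median 0.87). Lrrc38, an accessory subunit of the BK channel, was selective for CAST at 5.11 TPM and lowest in NZO at 0.005 TPM. The A-type channel partners Dpp6 and Dpp10 were both lowest in NZO, at 3.42 TPM (12.3 TPM in WSB) and 1.01 TPM (5.21 TPM in PWK), though only the second was lower there than in every other strain. The KATP subunits Kcnj11 and Abcc8 spanned 1.53- and 2.20-fold, and Abcc9, the partner of Kcnj8, was highest in NZO at 2.63 TPM. Of 11 genes for potassium pumps and cotransporters all 11 differed, 5 by at least 1 on the log2 scale, with a median of 0.90, again near all genes. Slc12a7, a potassium-chloride cotransporter, had 50.3 TPM in B6 and 13.1 TPM in WSB, where it was lowest.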

How the data were processed

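Whole-islet RNA-seq of 16 samples (8 strains, both sexes), with 91 library tables, was used. The authors quantified reads with RSEM on mm10 with GENCODE vM18 and deposited for each gene an expected count, not normalized between libraries, and TPM values, which sum to the same total in every library. Versions, alignment to strain-specific genomes and strandedness of the RNA counts are not given in the sources used here. Reads of strains that differ from the reference may align less well, which was not tested.

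After rounding of the expected counts, edgeR 4.0.16 (quasi-likelihood, R 4.3.3) was run with upper-quartile factors and terms for strain and sex. Protein-coding genes of chromosomes 1 to 19 and X were used, leaving out the lowest 10% by variance and those at zero in more libraries than the study allowed (85% had to be above zero), which left 15204 genes. P-values were adjusted by Benjamini and Hochberg over all of them. Normalized counts are scaled to the mean effective library size. At these depths 3 counts correspond to 0.0852 to 0.177 CPM, for counting error only. No pair of libraries of a strain agreed within sampling noise. Annotation came from GENCODE M21 (GRCm38), windows from RefSeq, and figures from matplotlib 3.10.9. The tests were checked on simulated counts with equal spread in every gene and correct sex labels. Such counts cannot check the effect of libraries against their label or of unequal cell content.

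Groups came from the sample labels. Libraries were built in several waves of animals that the labels do not assign. The genes and lists were chosen with earlier results of these data known. Named were the 20 most abundant genes, the 20 with the largest strain difference at a mean of at least 1 TPM, those selective for or lowest in a strain, the 5 most significant each way for wild-derived strains, up to 10 by sex, and 14 with known roles. Other genes named beside them were chosen after their values were seen. Alternatives were TMM, median-ratio size factors, filterByExpr, no filter, DESeq2 1.42.0, limma-voom (limma 3.58.1), no sex term, sums per sample, sets of libraries left out, and 2 marker covariates added after seeing the data. FPKM values were not used. Some genes that the rule names are not reported here.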

Additional observations from a re-analysis of the deposited data

Results flagged for a closer look

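Libraries that stood far from the others of their strain were sought in the highest and the lowest strain of each named gene, where that strain has 4 to 10 libraries and a mean of at least 1 TPM. Of 44 such groups 2 held one, and chance alone gives about 1 in 20. For Kcnn4 in NOD the highest of 10 libraries had 29.09 TPM, and the next had 15.4 TPM. This library also had the highest immune marker sum of all, 3271 TPM. For Kcnab3 in PWK the lowest of 5 libraries had 10.15 TPM, and the next had 16.4 TPM. This library also had the highest acinar marker sum of the PWK libraries, 265900 TPM (43689 to 95261 in the others), and the lowest summed TPM of the potassium channel genes, 356 (631 to 719).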

How the results depend on the processing

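Counts of genes that differed between strains, overall or by at least 1 on the log2 scale, and of those selective for or lowest in a strain stayed within 1.5 times of the reported count under every alternative run, as did the wild-derived counts and those within the number ranges. Leaving out each NZO and PWK library in turn gave 20 to 24 selective genes, 21 to 22 lowest, 23 to 25 higher and 21 to 23 lower in wild-derived strains, 4 to 6 higher in males and 7 to 8 in females. The sex counts moved: sums per sample gave 0 genes in males and 0 in females, limma-voom 4 in females, and leaving out the 12 libraries against their sex label 12 in females. In the sums per sample (edgeR), 7 genes in males and 9 in females had an unadjusted p under 0.05, and DESeq2 on the libraries called 6 and 8. A threshold of 5 TPM left 16 genes. With the immune covariate 17 of the 23 selective and 17 of the 22 lowest genes kept their call, and with the acinar covariate 21 and 22 (Kcna5 and Kcnn2 lost theirs). Sums per sample kept 16 and 19: lost were the selective calls of Kcnj3, Kcnn2, Kcnip4, Kcnj6, Kcnip2, Kcna5 and Kcnj15 and the lowest calls of Kcnk16, Kcnk10 and Kcnn1. For single genes the direction from highest to lowest strain never turned for the 52 named. The difference no longer passed for Kcnq1 with the acinar covariate, for Kcnf1 in sums per sample, and with the immune covariate for 5 genes, among them Kcna3, Kcnj15, Kcnk12 and Kcnn1; the cause was not tested. The Kcnn1 call in NOD held in 10 of 20 alternatives, and that of Kcnk1 in NZO in 11. Without NZO replicate 4 the calls of Kcnh6, Kcnk3, Kcnk1 (in NZO), Kcnip2 and Kcnj15 were lost. Without NZO replicate 3 those of Kcnh6, Kcnk1 (in NZO), Kcnj15 and Kcnn1 were lost. No paired analysis was possible because the labels give no replicate number that strains share; replicate numbers here only name libraries. NZO has 4 and PWK 5 libraries.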
